A study of Mus musculus with 8 samples.

Results

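In CD8+ T cells that had entered tumors (CD8+ tumor-infiltrating lymphocytes, TILs), 310 genes of 55335 in the count table were chosen because their RNA was much lower without LSD1 and did not closely follow a macrophage transcript. A gene was taken when its mean level in wildtype (WT) cells was 2 CPM or more (CPM, counts scaled to a common library total), its mean in LSD1-deficient (KO) cells was at most 0.4 times that, and its highest KO sample lay under its lowest WT sample. Its variation within genotype, as log2(CPM + 1) minus the mean of its group, also had to correlate with that of *C1qb*, a complement gene of macrophages, at a Pearson r under 0.7. Granzyme genes, *Lilrb4a* and 7 genes of macrophages and antigen presentation were left out by name. Of 12771 genes at 2 CPM or more in WT cells, 379 met the criteria of level, ratio and no overlap, or 2.97%. Of these, 63 had an r of 0.7 or more and 6 more were left out by name, namely *Lilrb4a* and 5 granzyme genes. Since the WT and KO values chose the genes, their differences between genotypes are given below as a description, with no test.

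The cells came from tumors of MC38, a mouse colon carcinoma line, implanted in C57BL/6 mice of 6 to 10 weeks. WT samples were Lsd1f/f, in which the floxed *Lsd1* gene is intact, and KO samples were Cd4-Cre+Lsd1f/f, in which Cre driven by *Cd4* deletes it in developing T cells, CD4+ T cells included. No other treatment is given for either group. There were 4 samples per genotype (S1 to S4 are WT, S5 to S8 are KO), each of 10000 to 20000 sorted cells that were CD45.2+TCRb+CD8+CD44+PD-1+, taken on day 18 by the sample protocol and at 14 days by the series' design text. A WT sample pooled 2 mice, whereas a KO sample was a single mouse. Libraries were depleted of ribosomal RNA and held 11657807 to 30295406 counts, so that 3 counts in a library stand for 0.099 to 0.257 CPM. *Kdm1a*, the gene that encodes LSD1, was at 43.6 to 46.7 CPM in WT and at 24.8 to 32.6 CPM in KO samples. S3 stood apart in macrophage RNA, with *C1qb* at 119 CPM against 30.6 to 53.0 CPM in the other WT samples and 2.11 to 7.09 CPM in KO samples.

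LSD1 is a histone demethylase that removes mono- and dimethyl marks from H3K4 and, as part of the CoREST complex, is best known as a repressor of transcription. CD8+ T cells that meet tumor antigen over a long time become exhausted: they carry PD-1 and other inhibitory receptors, and a progenitor pool that keeps the transcription factor TCF1 gives rise to terminally exhausted cells. Cells sorted from a tumor can carry RNA of macrophages, either from cells that pass the gate or from material stuck to T cells. In bulk samples, fewer cells of a type and less RNA per cell cannot be told apart.

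Together the 310 genes took 0.367%, 0.357%, 0.466% and 0.372% of the counts in the WT samples S1 to S4, against 0.103%, 0.0992%, 0.0865% and 0.0932% in KO samples S5 to S8. Most were expressed at a low level, with a median of 5.88 CPM in WT and 1.27 CPM in KO cells. Only 82 of them reached 10 CPM in WT cells and 16 reached 50 CPM. The median ratio of the KO to the WT mean was 0.214, and 66 genes had a ratio under 0.1. At these levels single samples rest on few counts, and the median coefficient of variation over the WT samples was 35.2%.

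**Figure D1:**
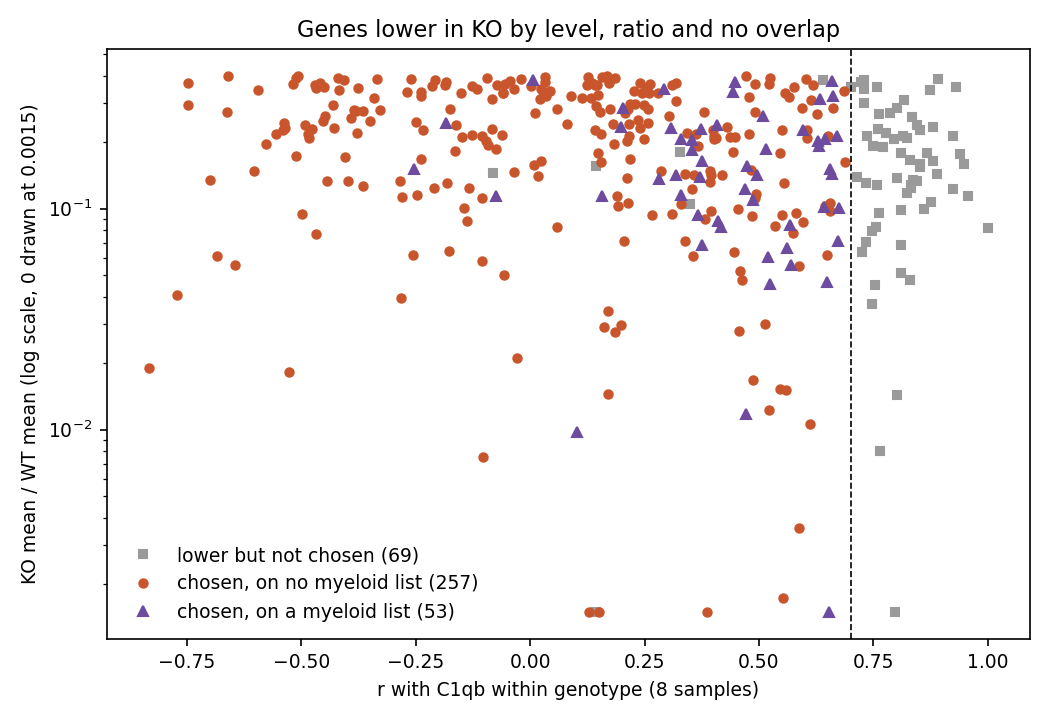
Each point is 1 of the 379 genes that met level, ratio and no overlap, with r with *C1qb* within genotype on the x axis and the ratio of the KO to the WT mean on a log y axis. Of the 310 chosen genes left of the dashed line at 0.7, the 53 on a myeloid list have a median r of 0.47 and the 257 others one of 0.15, and 4 genes at 0 counts in KO are drawn at the bottom.

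The name of the set, which puts these genes apart from macrophage RNA, held only in part. Of the chosen genes, 53 stood on a list of genes that macrophages and other myeloid cells are known for: 4 of 18 core markers (among them *Msr1*, *Cd14* and *Spi1*) and 49 of 87 further genes, among them *Mpeg1*, *Grn*, *Tgfbi*, *Spp1* and *Fn1*. *Mpeg1*, a pore-forming protein of macrophages, was at 79.6, 115, 256 and 107 CPM in S1 to S4 (WT) and at 15.9, 23.4, 7.01 and 9.77 CPM in S5 to S8, and its r with *C1qb* of 0.67 lay just inside the limit. Its highest value was in S3. *Cd14*, the lipopolysaccharide co-receptor, differed from it in that its WT values of 12.3, 12.7, 12.4 and 13.5 CPM were nearly level, and KO samples held 2.45, 3.71, 2.67 and 1.72 CPM.

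Over all 53 myeloid genes the median r with *C1qb* was 0.47 within both genotypes but 0.85 within the 4 WT samples alone, the latter being a description of 4 points. S3 held the highest WT value for 44 of the 53 (83.0%), for 98 of the 257 chosen genes on no myeloid list (38.1%) and for 32.8% of all genes at 2 CPM or more. Relative to each gene's WT mean, the median level in S3 was 1.56 for the 53 myeloid genes, 1.08 for the 257 others and 1.88 for the 14 core markers that were not chosen. Among the 64 chosen genes on no myeloid list at 10 CPM or more, S3 was highest for 22 and the median relative level there was 1.02. In KO samples the median relative levels of the 257 genes were 0.199, 0.181, 0.178 and 0.236, close to each other, whereas those of the 14 core markers were 0.173, 0.189, 0.0986 and 0.0641. *C1qb* was itself highest in S3, and genes that followed it beyond the limit on r had been left out of the set. The levels of both chosen sets in S3 are therefore bounded in part by that choice. The same holds for their contrast with the core markers that were not chosen. The part of macrophage RNA in the differences of the chosen genes was not tested. *Fcgr2b* and *Lair1*, receptors that myeloid cells also carry, were on neither list and are counted among the 257, and both were picked out after their values were seen. Of the 257, 48 had an r of 0.5 or more with the mean of the myeloid core without *C1qb*, and 16 one of 0.7 or more. The upper quartile of this r was 0.40 for the 257 and 0.45 for all genes at 2 CPM or more. How many of the 257 are genes that myeloid cells also carry was not tested.

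**Figure D2:**
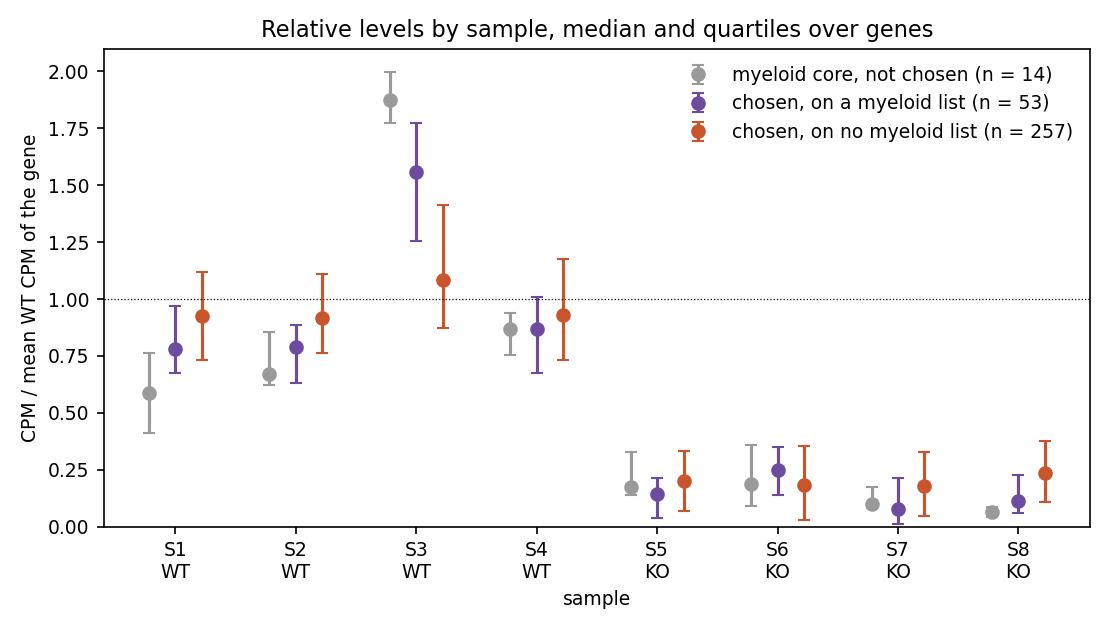
The y axis gives CPM divided by the gene's WT mean, for each sample on the x axis, and points and bars are the median and the quartiles over the genes of a set. In S3 the core markers that were not chosen have a median of 1.88 and the chosen myeloid genes one of 1.56, while the other chosen genes have one of 1.08. *C1qb* is highest in S3, and the limit on r with *C1qb* bounds the levels of the chosen genes there in part.

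Marker lists of 12 cell types were summed in each sample, and the 9 of them without a chosen gene were compared between genotypes with an exact permutation test (two-sided, 70 arrangements). Of these, 3 reached the smallest possible p of 0.0286, which was 0.0857 after Benjamini-Hochberg adjustment, so that none passed 0.05. The core myeloid list, not tested since it held chosen genes, was at 316 to 946 CPM in WT and 60.3 to 119 CPM in KO samples. The dendritic cell list, 1 of the 3, was at 209 to 260 CPM in WT and 119 to 177 CPM in KO samples. Of its 7 genes, 3 passed the low-count filter of edgeR and 1 of them, *Ccr7*, was called lower. The B cell list was at 4.54 to 7.89 CPM in WT and 17.0 to 43.0 CPM in KO samples, and the endothelial list at 21.0 to 27.9 CPM and 58.6 to 72.8 CPM. Of their 7 genes each, 3 and 1 passed the low-count filter of edgeR and 1 in each was called higher, *Cd22* (log2 fold change 3.01 ± 0.43 SE, adjusted p = 0.000189) and *Pecam1* (1.48 ± 0.15 SE, adjusted p = 5.23e-06). *Hbb-bs*, a globin of red blood cells, was the 1 chosen gene among 5 erythroid markers, whose sum was 4.79 to 13.9 CPM in WT and 0 to 0.903 CPM in KO samples. No gene of the dendritic cell, fibroblast, endothelial, B cell, neutrophil, NK cell, epithelial, CD4 T cell or CD8 T cell lists was chosen, and the 16 CD8 T cell markers summed to 7008 to 9298 CPM in WT and 7079 to 9034 CPM in KO samples. *Lum* and *Pdgfrb* of the fibroblast list, *Emcn* and *Cldn5* of the endothelial list, *Blk* of the B cell list, *S100a9*, *Cxcr2* and *Retnlg* of the neutrophil list and *Krt8* and *Krt19* of the epithelial list were at 0 in every sample.

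Sequence from the start sites of a few of these genes is given as examples, which do not stand for the set. *Pkp4*, a plakophilin of cell junctions, and *Ccdc148*, which encodes a coiled-coil protein, lie head to head on chromosome 2 and are both among the chosen genes, with 166 bases between their starts. This stretch, from RefSeq on GRCm38.p6 (chr2:59160684-59160849, plus strand, toward *Pkp4*), is shown because both starts border it. Capitals mark CCAAT on either strand, a motif picked after the sequence was seen, which occurs 3 times here. It occurs at least once in 37.4% of 32851 promoters, which take in bases on both sides of a start and are longer than this stretch.
Ccdc148-Pkp4: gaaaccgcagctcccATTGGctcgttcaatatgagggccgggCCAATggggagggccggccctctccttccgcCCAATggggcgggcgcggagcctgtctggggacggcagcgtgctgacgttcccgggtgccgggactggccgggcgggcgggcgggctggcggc
The next stretches are the 100 bases before the start of 1 chosen myeloid gene, *P2ry13* (a purine receptor, chr3:59210883-59210982, minus strand), and of 2 genes on no myeloid list, *Spry2* (chr14:105896820-105896919, minus strand) and *Slc17a6* (chr7:51621730-51621829, plus strand). Capitals mark PU.1 (GAGGAAG) and NFAT (GGAAAA) letters on either strand, which overlap in *P2ry13* and are absent from the stretch of *Slc17a6*.
P2ry13: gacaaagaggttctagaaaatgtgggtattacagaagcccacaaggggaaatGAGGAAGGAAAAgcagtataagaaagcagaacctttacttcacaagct
Spry2: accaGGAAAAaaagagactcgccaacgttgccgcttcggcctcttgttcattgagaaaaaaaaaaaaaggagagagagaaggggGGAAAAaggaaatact
Slc17a6: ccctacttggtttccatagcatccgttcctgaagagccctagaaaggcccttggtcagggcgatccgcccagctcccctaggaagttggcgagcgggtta
RefSeq held promoters for 216 of the 310 genes, 289 promoters in all. GAGGAAG, which the myeloid factor PU.1 is known to bind, was found in 28.6% of the promoters of chosen myeloid genes (12 of 42). It was in 11.3% of those of the other chosen genes. For all genes at 2 CPM or more and for all promoters the shares were 13.8% and 13.6%. GGAAAA was found in 42.9%, 17.8%, 20.6% and 23.4%, in the same order. For the AP-1 letters TGANTCA the shares were 7.14% (3 of 42 promoters), 8.50%, 4.97% and 7.81%. Letters of RUNX factors (TGTGGT) were in 21.4%, 10.9%, 13.1% and 16.8%, and those of GFI1 (AAATCAC) in 9.52%, 2.83%, 2.08% and 3.20%. For HIF (ACGTG) the shares were 16.7%, 20.2%, 26.0% and 19.6%. T-box letters (GGTGTGA) were in 4.76%, 2.02%, 3.28% and 3.98%, and NR4A letters (AAGGTCA) in 4.76%, 3.64%, 3.14% and 4.72%. The TCF/LEF letters CTTTGA were in 13.8% of the promoters of the chosen genes on no myeloid list and in 11.9% of those of all genes at 2 CPM or more. CpG dinucleotides were at a median of 0.292 of the number that base composition gives in the promoters of chosen myeloid genes, 0.582 in those of the other chosen genes and 0.769 in those of all genes at 2 CPM or more. These shares are descriptions, and a match is not a bound site.

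Head-to-head *Pkp4* and *Ccdc148* were lower to a like extent. *Pkp4* (chromosome 2 from 59160850 to 59355208) was at 182, 143, 146 and 157 CPM in S1 to S4 (WT) and at 62.1, 44.7, 51.5 and 34.8 CPM in S5 to S8, or 157 ± 17.6 CPM in WT and 48.3 ± 11.5 CPM in KO cells (SD, n = 4 each), a ratio of 0.308. *Ccdc148* was at 10.3, 12.5, 11.4 and 9.95 CPM in WT and 4.26, 2.95, 4.93 and 2.05 CPM in KO samples, a ratio of 0.322. For both genes S8 was the lowest sample, and neither group came near the other. In all, 22 pairs of chosen genes that neighbour each other lay within 100 kb, and in some pairs the genes overlap. No such count was made for other sets of genes, so that this number is a description only. The pairs include *Ccl2* and *Ccl7*, *P2ry13* and *P2ry12*, *Csf2rb2* and *Csf2rb*, *Spp1* and *Pkd2*, and *Ptpn14* and *Smyd2*. A noncoding gene inside *Epas1* and on its strand, AC096777.1, and *Gm6277*, which shares 29.7% of its exon bases with *Cables1* on the opposite strand, were also chosen, and with the strand setting of the counting unknown their reads cannot be told apart from those of the larger gene.

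**Figure D3:**
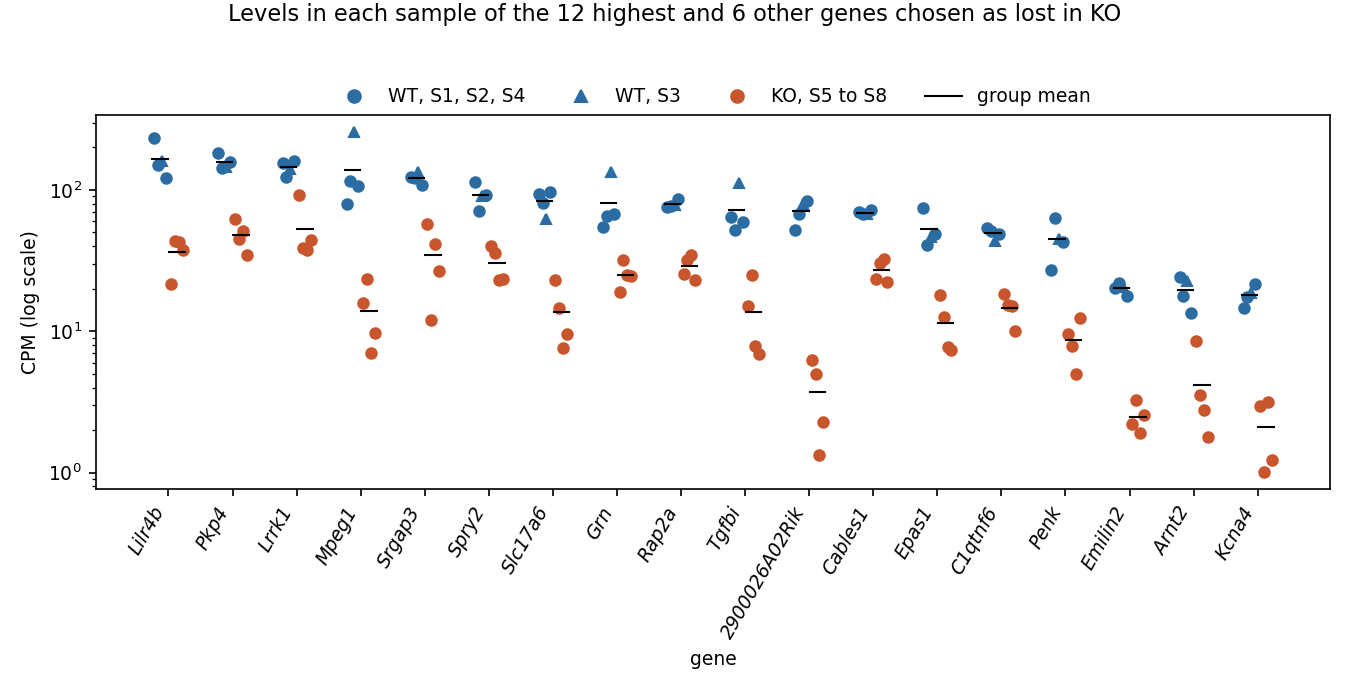
CPM on a log axis for the 12 chosen genes with the highest WT mean and 6 others that the text describes, with 1 point per sample (WT in blue with S3 as a triangle, KO in orange) and a line at each group mean. No KO point reaches a WT point of the same gene, and S3 is the highest WT sample for *Mpeg1*, *Grn* and *Tgfbi*.

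*Lilr4b*, an immunoglobulin-like receptor of leukocytes, had the highest WT level of the set. It was at 232, 150.1, 161 and 121 CPM in S1 to S4 (WT) and at 21.7, 43.2, 43.1 and 37.6 CPM in S5 to S8, 4.57-fold lower in KO cells. S3 was not its highest sample, and its r with *C1qb* was -0.38, both bounded in part by the limit on this r. *Lilrb4a*, its neighbour and close relative that encodes an inhibitory receptor, was left out by name, and was at 135 CPM in WT and 19.5 CPM in KO cells. Reads of so similar a pair could be split between them, so each level is uncertain. *Pirb* and *Lilra5*, of the same receptor family, were chosen at 6.76 and 2.19 CPM in WT cells, and *Pirb* stood on the myeloid list.

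Inhibitors of receptor signaling included *Spry2* and *Socs5*. *Spry2*, a feedback inhibitor of the Ras and ERK pathway, was at 114, 71.4, 90.2 and 92.2 CPM in S1 to S4 (WT) and at 40.0, 35.8, 23.1 and 23.5 CPM in S5 to S8, 3-fold lower. Per kilobase of exon it was the highest of the 64 chosen genes on no myeloid list at 10 CPM or more, at 44.0 CPM per kilobase in WT cells. Of the 5 relatives tested none was called by edgeR (more than 1.5-fold and adjusted p below 0.01), while DESeq2 called 1, *Spry1*, whose log2 fold change from edgeR was 0.79 ± 0.19 (SE, adjusted p = 0.0127), the 1 relative at an unadjusted p under 0.05. *Socs5*, of the suppressors of cytokine signaling, went from 24.8 ± 6.11 to 9.02 ± 3.54 CPM (SD, n = 4), and none of 7 SOCS relatives was called by edgeR or DESeq2, with 2 at an unadjusted p under 0.05.

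The lists of opioid precursors, Kv1 channels and SLC17 and SLC16 transporters gave 1 chosen gene each. *Slc17a6*, the vesicular glutamate transporter VGLUT2 of neurons, was at 93.7, 80.7, 62.2 and 96.3 CPM in S1 to S4 (WT) and at 23, 14.7, 7.6 and 9.51 CPM in S5 to S8, 6.08-fold lower. Its lowest WT value was in S3, where macrophage RNA was highest. The limit on r with *C1qb* bounds in part where a chosen gene stands in S3. *Penk*, which encodes the precursor of enkephalins, was at 27.1, 63.8, 45.3 and 43 CPM in WT and 9.54, 7.84, 5.01 and 12.3 CPM in KO samples, and the WT samples spread more than the KO samples in CPM. *Kcna4*, a voltage-gated potassium channel, was at 14.6, 17.4, 18.5 and 21.4 CPM in WT and 2.97, 1.01, 3.17 and 1.22 CPM in KO samples. Its relative *Kcna3*, the main channel of this kind in T cells, was not chosen and rose from 65.5 to 117 CPM in KO cells (log2 fold change 0.86 ± 0.13 SE, adjusted p = 0.000219 from edgeR). *Slc16a11*, of the monocarboxylate transporters, went from 11.9 ± 4.31 to 1.59 ± 0.717 CPM (SD, n = 4).

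Hypoxia-inducible factors are pairs of an oxygen-regulated alpha subunit and an ARNT subunit, and 1 of each kind was chosen. *Epas1*, which encodes HIF-2alpha, was at 74.3, 41, 46.3 and 49.2 CPM in S1 to S4 (WT) and at 18.1, 12.7, 7.76 and 7.43 CPM in S5 to S8, 4.59-fold lower. *Arnt2* was at 24.3, 17.9, 22.5 and 13.6 CPM and 8.51, 3.54, 2.76 and 1.78 CPM in the same samples, 4.72-fold lower. S5 was the highest KO sample for both, and the groups did not overlap. *Hif1a*, at 752 CPM in WT and 912 CPM in KO cells, and *Arnt*, at 46.2 and 33.1 CPM, were not called (edgeR, adjusted p = 0.063 and 0.0744). *Hif3a* rose from 3 counts in 1 WT library to 345 counts over the KO libraries, 99.2-fold per count sequenced (95% exact interval 33.7 to 483, counting error only, adjusted p = 0.000124 from edgeR).

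Of the 12 chosen genes with the highest WT level, 4 were the 1 chosen gene of a short family list (*Srgap3*, *Rap2a*, *Lrrk1* and *Cables1*). *Srgap3*, which activates the GTPase of Rac, was at 123, 122, 135 and 108 CPM in WT and 57.6, 12, 41.3 and 26.7 CPM in KO samples. Its KO samples spread widely while its WT samples were nearly level. *Rap2a*, a Ras-like GTPase, was at 75.2, 77.5, 78 and 86.6 CPM and 25.5, 32.1, 34.7 and 23.2 CPM, and *Rap2b* and *Rap2c* were not called. *Srgap2*, at 111 CPM in WT and 107 CPM in KO cells, was not called either (edgeR, adjusted p = 0.940). *Lrrk1*, a leucine-rich repeat kinase, was at 155, 124, 141 and 161 CPM in WT and 92.2, 38.7, 37.8 and 44.4 CPM in KO samples, with S5 far above the other KO samples. *Cables1*, which links cyclin-dependent kinases to Abl, had the most even WT values of all 310 genes, 69.7, 68.1, 67.3 and 71.7 CPM, and was at 23.4, 30.3, 32.5 and 22.4 CPM in KO samples. 2900026A02Rik was lowered most among the 12 highest genes, from 52.1, 67.8, 80.1 and 83.9 CPM in S1 to S4 to 6.25, 4.98, 1.34 and 2.28 CPM in S5 to S8, 19.1-fold.

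Secreted matrix proteins gave 8 of the chosen genes, the most of any family list, and at 22 genes this list was also the longest: *Spp1*, *Fn1*, *Tgfbi*, *Thbs1*, *Podnl1*, *Spock2*, *Itih5* and *Sspo*. The first 4 of them were also on the myeloid list. *Spp1*, the secreted protein osteopontin, was at 27.7, 72, 55.5 and 50.9 CPM in WT and 3.74, 7.34, 5.18 and 3.07 CPM in KO samples, with S1 the lowest of the WT samples. *Podnl1*, a small leucine-rich proteoglycan, went from 33.6 ± 4.99 to 10.9 ± 3.63 CPM (SD, n = 4) and *Itih5* from 22.7 ± 7.82 to 5.5 ± 0.95 CPM (SD, n = 4). Beyond this list, *Emilin2*, a glycoprotein of elastic fibers, was at 20.3, 22, 20.4 and 17.7 CPM in S1 to S4 (WT) and at 2.19, 3.29, 1.92 and 2.57 CPM in S5 to S8, 8.05-fold lower with little spread in either group. *C1qtnf6*, related to the C1q proteins in one domain only, was at 54.1, 51.6, 43.2 and 48.6 CPM and 18.5, 15.3, 15 and 9.97 CPM, and within WT its values ran opposite to *C1qb* (r of -0.99 over 4 points). Over the 310 genes the lowest such r was also -0.99. As r with *C1qb* took part in the choice of genes, this value is a description only. The related *C1qtnf12* lay just outside the ratio limit at 0.405 and was called lower (log2 fold change -1.27 ± 0.29 SE, adjusted p = 0.00805 from edgeR). The heparan sulfate proteoglycans *Sdc3* and *Gpc1* went from 39.6 ± 17 to 10.4 ± 3.41 CPM (SD, n = 4) and from 19.5 ± 5.27 to 5.73 ± 1.58 CPM (SD, n = 4). *Sdc3* was highest in S3, at 65.1 CPM, whereas *Gpc1* was lower in S3 and S4 than in S1 and S2. *Sdc4*, of the same group, rose from 13.9 to 35.8 CPM (log2 fold change 1.36 ± 0.23 SE, adjusted p = 0.000843 from edgeR).

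The lists of Frizzled receptors and DAAM formins and of TGF-beta and BMP ligands gave 3 chosen genes each. *Fzd4* and *Fzd7*, Frizzled receptors of Wnt ligands, went from 13.2 ± 3.15 to 1.36 ± 0.983 CPM (SD, n = 4) and from 5.44 ± 1.85 to 0.449 ± 0.519 CPM (SD, n = 4), and *Daam1*, a formin of Wnt signaling, from 9.9 ± 1.64 to 2.1 ± 0.816 CPM (SD, n = 4). *Fzd5* was at 44.6 CPM in WT and 45.6 CPM in KO cells and was not called (edgeR, adjusted p = 0.883). *Bmp7*, a bone morphogenetic protein, was at 5.56, 4.58, 4.34 and 4.98 CPM in WT and 0.387, 0.253, 0.334 and 0.231 CPM in KO samples, with little spread at either level. *Tgfb3*, a TGF-beta ligand, went from 2.37 ± 1.72 to 0.131 ± 0.0885 CPM (SD, n = 4), with S1 far above the other WT samples, and *Bambi*, a decoy receptor of this pathway, from 7.01 ± 2.6 to 0.986 ± 1.17 CPM (SD, n = 4). *Tgfb1*, a ligand that T cells make, was not chosen and went from 194 to 264 CPM, less than the 1.5-fold of a call (log2 fold change 0.47 ± 0.10 SE, adjusted p = 0.00606 from edgeR). In *Lif* and *Lifr* both a cytokine and its receptor were chosen, the former at 5.99 and 2.33 CPM in WT and KO cells. *Lif* was picked out after its values were seen.

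The list of glycan enzymes gave 2 chosen genes, *Mgat3* and *B4galt6*, and both had 10 or fewer counts over the KO libraries. *Mgat3*, which adds the bisecting N-acetylglucosamine to N-glycans, was at 6.07, 9.84, 11.7 and 10.6 CPM in S1 to S4, at 0 in S5 to S7 and at 0.066 CPM in S8. Its 555 counts in WT against 2 in KO libraries gave a ratio of 322 per count sequenced (95% exact interval 88.7 to 2664, counting error only). None of the 11 other genes of its list that were tested, enzymes that branch or galactosylate glycans, was called by edgeR or DESeq2, with 4 at an unadjusted p under 0.05. *B4galt6*, which makes lactosylceramide, had 247 WT and 8 KO counts. Both glycan genes were highest in S3 among WT samples, with an r with *C1qb* of 0.55 and 0.56. *Dsc2*, a cadherin of desmosomes, had 166 WT counts and none in KO libraries.

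A count of 0 in every KO library was found for 4 chosen genes, *Dsc2*, *Pld1*, *Gm6093* and *Mertk*. Taking 3 counts over the KO group as the limit that 0 allows, which covers counting error only, *Dsc2* was at least 64.2-fold lower, *Pld1* (phospholipase D) at least 66.5-fold, *Gm6093* at least 64.6-fold and *Mertk* (a receptor for dying cells on macrophages) at least 43.7-fold. In *Pld1*, *Dsc2* and *Gm6093* the highest WT value was in S3, S1 and S2, at 3.66, 4.03 and 3.47 CPM. *Mertk* was highest in S3, at 4.51 CPM against 0.772 to 1.79 CPM in the other WT samples. In all, 27 chosen genes had 10 or fewer counts over the KO libraries, and 23 of those with at least 1 count had ratios per count of 18.0 to 322. They include *Tgfa*, a ligand of the EGF receptor, the semaphorin *Sema3a*, the deacetylase *Hdac11*, the G protein subunit *Gng11* and *Lifr*. *Lifr* was at 2.33, 3.63, 14.4 and 1.37 CPM in S1 to S4, so that its WT mean rested on S3.

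**Figure D4:**
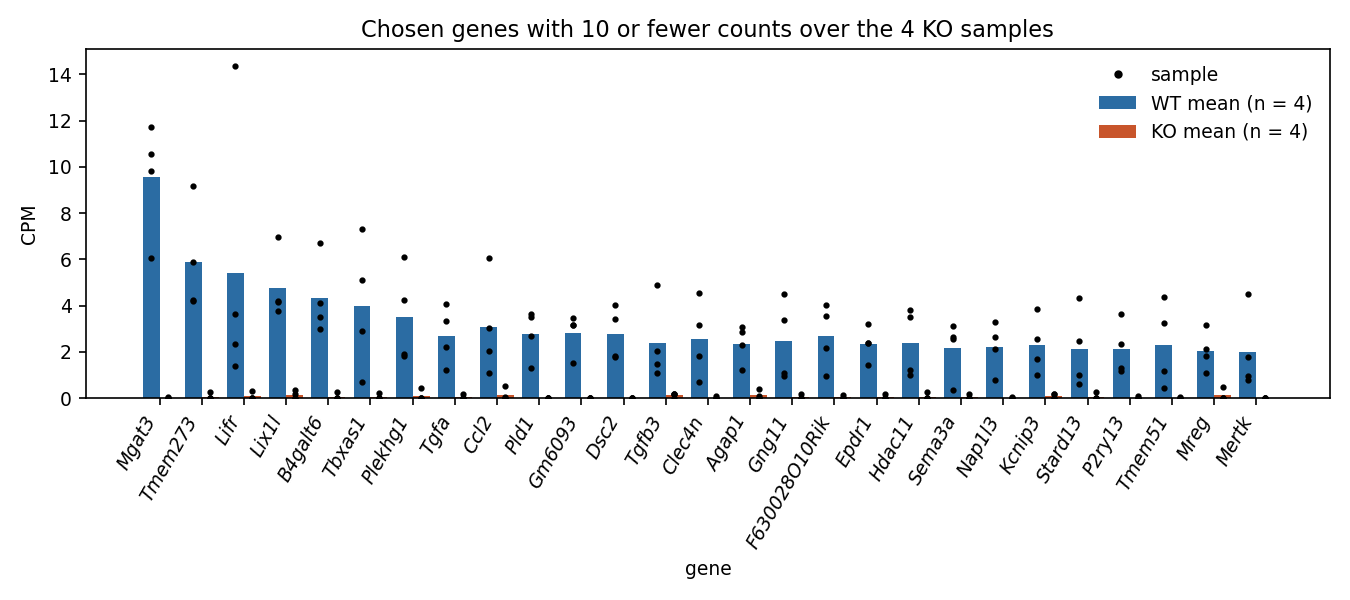
Mean CPM (bars from 0) and CPM of each sample (points) for the 27 chosen genes with 10 or fewer counts over the 4 KO libraries, WT in blue and KO in orange. *Mgat3* is the highest at 9.55 CPM in WT cells, and the WT points of *Lifr* spread from 1.37 to 14.4 CPM.

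*C1qb* itself had a KO to WT ratio of 0.0815, and 49 of the 310 genes were lower than that, of which 10 were on a myeloid list and 39 were not. *Synpo2*, an actin-binding protein, was at 8.62, 9.21, 8.93 and 7.63 CPM in WT and 0.774, 0, 0 and 0.231 CPM in KO samples, with nearly level WT values. *Mrc2*, an endocytic collagen receptor, was at 11.3, 9.84, 4.68 and 5.4 CPM in WT and 0.322, 0.337, 0.251 and 0.363 CPM in KO samples, and was lower in S3 and S4 than in S1 and S2. *Wdfy3*, an adaptor of autophagy, went from 9.22 ± 6.53 to 0.319 ± 0.484 CPM (SD, n = 4), with WT values of 11.6, 3.37, 17.3 and 4.55 CPM. The WT samples thus did not share 1 order across these genes.

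Variable segments of the T cell receptor gave 5 chosen genes, *Trbv2*, *Trav8d-2*, *Trav10*, *Trav13-1* and *Trgv2*. By annotation, 37 such segments reached the WT level that the choice required. Of all genes at this level, 2.97% met level, ratio and no overlap. How the other segments changed is not given here. The use of such segments differs between T cell clones and hence between mice. WT samples pooled mice and KO samples were single mice, and whether this bears on the 5 genes was not tested. *Trav8d-2* had the lowest r with the mean of the myeloid core of all chosen genes, -0.89. *Ighm*, the heavy chain of IgM, was at 56.7, 61.4, 83.3 and 46.9 CPM in WT and 13.8, 14.8, 16 and 39.3 CPM in KO samples, while the summed B cell markers of each KO sample lay above those of each WT sample. These 6 genes were picked out after their values were seen.

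To see whether relatives of the chosen genes were lower as well, 31 lists of gene families, drawn up around genes already known to be low in KO cells and of which 27 held a chosen gene, were read in an edgeR fit of all 15378 genes that passed its low-count filter. Calls needed more than 1.5-fold and an adjusted p below 0.01, at which 1.99% of all genes tested were lower and 2.91% higher in KO cells. In the 27 lists, 97 relatives that were not chosen were tested, of which 6 were lower, 7 were higher and 84 were not called. A relative that met all criteria of the set was itself chosen and left this count. The number called lower is thus bounded by the choice, and how often relatives fell as well cannot be read from it. The 4 other lists, with 15 genes tested, gave 4 lower genes (*Myo1e*, *Sh3pxd2b*, *Tent5a* and *Bend4*), and as the lists were drawn up around genes known to be low, these calls do not bear on relatives of chosen genes. Of the 10 genes called lower in all, 6 had met level, ratio and no overlap and were kept out by their r or by name: *Lilrb4a*, *Sema4c*, *Myo1e*, *Sh3pxd2b*, *Cd244a* and *Slamf9*. The other 4 were *C1qtnf12*, *Tent5a*, *Bend4* and *Myc*. *Myc* fell from 72.5 to 33.0 CPM (log2 fold change -1.11 ± 0.19 SE, adjusted p = 0.00084 from edgeR), while its relative *Bmyc* was chosen at 5.49 and 0.715 CPM. *Bend4*, a BEN domain protein, fell from 191 to 82.3 CPM (log2 fold change -1.19 ± 0.11 SE, adjusted p = 2.02e-06 from edgeR). *Sema4c*, a semaphorin, fell from 132 to 50.1 CPM (log2 fold change -1.37 ± 0.18 SE, adjusted p = 7.7e-05 from edgeR), and *Plxnb2*, a receptor of class 4 semaphorins, was chosen at 21.2 and 4.50 CPM.

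The 7 relatives that rose were *Kcna3*, *Hif3a*, *Sdc4*, *Sema4f*, *Plxnb1*, *Slamf1* and *Slamf6*. *Plxnb1* rose from 4.40 to 17.9 CPM and *Sema4f* from 8.68 to 38.7 CPM (log2 fold changes 2.05 ± 0.27 and 2.16 ± 0.22 SE, adjusted p = 8.04e-05 and 5.57e-06 from edgeR). In the SLAM receptors, *Slamf6*, carried by progenitor exhausted cells, rose from 39.6 to 110.3 CPM and *Slamf1* from 80.1 to 124 CPM, while *Cd244a* fell from 25.4 to 9.01 CPM (adjusted p = 1.47e-05, 0.00146 and 0.00294 from edgeR). In 25 of the 27 lists with a chosen gene, a tested relative was present that was not called lower. Since 1.99% of all genes tested were called lower, most genes of any list are not, and this count is a description only. With the myeloid core level of each sample as a covariate, none of the 112 genes tested in the 31 lists was called in either direction. Over all genes, 1 was then called lower and 24 higher. An unadjusted p under 0.05 was found for 19 of the 112, against 52 without the covariate. The share of all genes under this unadjusted p is not given here. These counts, and those given above for single families, are thus descriptions only.

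**Figure D5:**
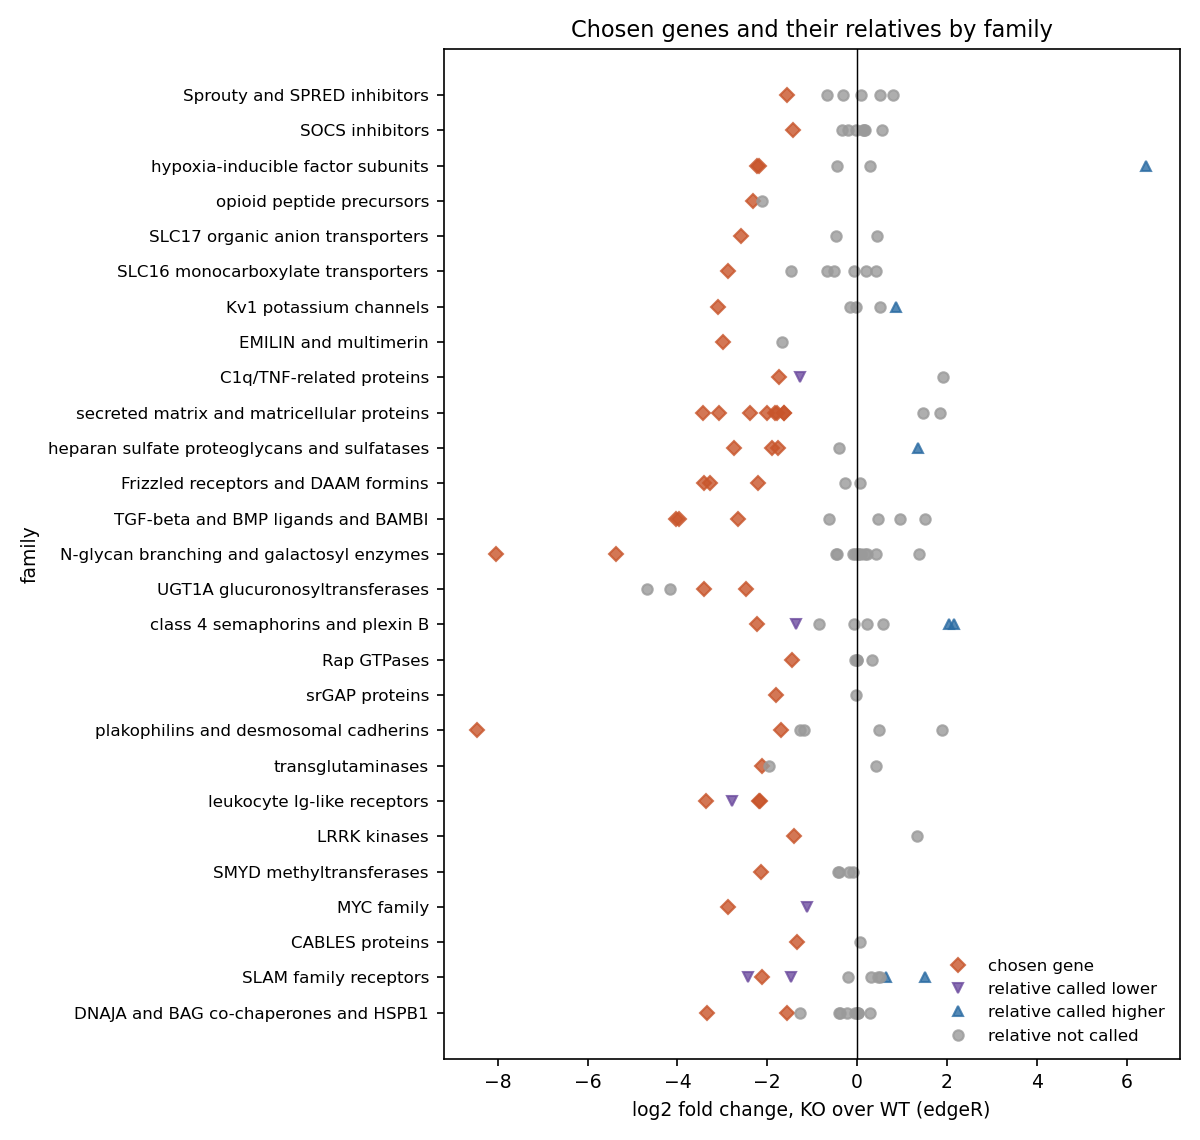
Log2 fold change from edgeR (KO over WT, x axis) of the chosen genes and of their tested relatives in the 27 family lists that hold a chosen gene. Chosen genes lie at -1.34 or lower by their choice, relatives that were not called scatter around 0 in most lists, and *Hif3a* is the point farthest to the right.

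In the same fit, 303 of the 310 genes passed the low-count filter and 138 were called lower, which the choice of genes fixes in large part. Adding the myeloid core level as a covariate moved the median log2 fold change of the 14 core genes that were not chosen, of which 13 were tested, from -2.97 to 0.19. For the 52 tested myeloid genes of the set it went from -2.62 to -0.86, and for the 251 others from -2.06 to -2.36. For all genes tested the medians were -0.01 and -0.04. The covariate was computed from the core genes themselves, so that the move of their median follows from its construction and is no check of the fit. Myeloid level and genotype moved together over the 8 samples, so that this fit sets them apart only through the variation within genotype. Genes that varied with *C1qb* within genotype, at an r of 0.7 or more, had been left out of the set, so that the values of the chosen genes in this fit follow in part from their choice.

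Within genotype the chosen genes did not vary as a block. At 10 CPM or more in WT cells, pairs of the 64 genes on no myeloid list had a median r of -0.00027 over the 8 samples, against 0.36 for pairs of the 18 myeloid genes and 0.08 for pairs of all 8779 genes at this level. An r of 0.7 or more was found in 6.10%, 22.9% and 6.00% of these pairs. The median r with the mean of the myeloid core without *C1qb* was 0.61 for the 53 myeloid genes and 0.12 for the 257 others. For all genes at 2 CPM or more it was 0.17. *C1qb* itself had an r of 0.88 with this mean, so that the limit on r with *C1qb* bounds these values in part. All of these points share the same 8 libraries and their depth.

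By annotation, 272 of the 310 genes (87.7%) were protein-coding, against 82.7% of all genes at 2 CPM or more. The rest included 8 lincRNAs, 7 antisense RNAs and 7 processed pseudogenes. *Ugt1a7c* and *Ugt1a6a* share their last exons with the rest of the UGT1A cluster, *Il4i1* shares 83.9% of its exon bases with *Tbc1d17* on the opposite strand and *Dnaja4* shares 44.1% with *Wdr61*, so that the counts of these genes are uncertain.

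Values near the limits show how the set was bounded. *Spint1*, *Kctd7*, *Gm5801* and *Gfod2* were just inside the ratio limit at 0.399 to 0.397, and *Bag2*, *Tdrd7*, *C1qtnf12* and *Tpst1* were just outside at 0.401 to 0.406. For r with *C1qb*, *F11r*, *Ak4*, *Mpeg1* and *Tmem176b* were inside at 0.69 to 0.67, and *Rnase4*, *Cd300c2*, *Mvb12b* and *Itgb5* outside at 0.70 to 0.73. For the WT level, *Mertk* was inside at 2.01 CPM and *Dgkg* outside at 1.97 CPM. For the gap between the groups, *Ak4* was inside, with its lowest WT sample 0.0149 CPM above its highest KO sample, and *Snord53* outside.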

How the data were processed

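RNA-seq was performed on CD8+CD44+PD-1+ TILs, with 4 samples of each genotype. Reads were mapped to GRCm38 by the authors with STAR, assigned to GENCODE genes with featureCounts and deposited as raw counts per gene. Whether the counting used the strand is not given in the sources used here. GEO's labels define both genotypes, and the columns S1 to S8 were assigned to them from the legend of a plot in the study's supplement. Which replicate each column is could not be worked out. Replicates are separate pools or mice, and all 8 columns were used.

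CPM was the count over the library total, scaled so that each library sums to the same total. Gene names, types and exons came from GENCODE M21 on GRCm38 (55154 of 55335 IDs matched), and promoters from RefSeq. Members were chosen by the criteria given in the report, with a pseudocount of 1. The members, the marker and family lists and the motifs were chosen with earlier results of these data known. Named genes are the members on a list, the 12 highest in WT cells, the 12 with the lowest ratio, those at 0 in KO or under the ratio of *C1qb*, up to 4 on each side of a limit, relatives that were called, and *Kdm1a*, with others said to be picked later. The values of 1 gene that this would name are not reported here. Families were tested with edgeR 4.0.16 in R 4.3.3 (filterByExpr, TMM, glmQLFit, glmQLFTest) with Benjamini-Hochberg adjustment over all 15378 genes, and the SE was derived from the log2 fold change and its F statistic. PCR duplicates were not removed by molecular identifiers, so that intervals and limits hold for counting error alone. Both the choice of members and the fit were tested on simulated data. Alternatives were other scalings, limits, correlations, filters and DESeq2 1.42.0, the myeloid core level as a covariate, and leaving out each sample.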

Additional observations from a re-analysis of the deposited data

Results flagged for a closer look

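Over 58 groups of 4 samples whose single values were examined, 4 had a sample so far from the others that the ratio of its gap to the whole range was above the 95% critical value of Dixon's test on the log2(CPM + 1) scale (log2 for the summed level), where chance gives about 1 in 20. S3 stood apart in WT for the sum of all 310 genes, at 4659 CPM against 3567 to 3722 CPM (gap of 0.84 of the range). S8, the deepest library, stood apart in KO for *Mgat3*, with 2 counts against 0 in the others (1.0), for *Lifr*, at 0.330 CPM against 0 in the others (1.0), and for *Ighm*, at 39.3 CPM against 13.8 to 16.0 CPM (0.86). Where all other samples are at 0, any count gives a ratio of 1.0. The flags of *Mgat3* and *Lifr* thus follow from the zeros, and the rate of 1 in 20 does not hold for them.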

How the results depend on the processing

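No paired analysis was possible because the count columns carry no replicate numbers. The 310 genes became 177 with a WT minimum of 5 CPM and 205 with r taken within WT samples only, and its 53 myeloid genes became 35 and 18. Under the other alternatives tried the set stayed between 223 and 448 genes, within 1.5 times the size reported, but its myeloid genes became 31 with r under 0.5 and 81 with no limit on r. With TMM-normalized CPM, 294 of the 310 remained, with DESeq2 size factors 291, and with the mean of the myeloid core in place of *C1qb* 273. Without 1 sample at a time the set ranged from 306 to 388 genes, 149 of the 310 remained in all 8 cases, and without S3 the set held 337 genes, 271 of them shared. Over all 31 family lists, relatives called lower numbered 7 to 11 and those called higher 6 to 9 without 1 sample at a time. DESeq2 called 12 of them lower and 9 higher, which include the 10 and 7 of edgeR. With the myeloid core covariate both counts were 0. That fit has 1 more term, which moves with genotype, and the cause of the lost calls was not tested. The median r with the myeloid core ranged from 0.38 to 0.70 for the 53 myeloid genes and from -0.09 to 0.20 for the 257 others without 1 sample at a time, the lowest of both without S3. Depth limits genes near 2 CPM, where 3 counts are 0.099 to 0.257 CPM.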

Other observations

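Some of the 310 genes that stood on no list share a known role, and the following were picked after their values were seen. *Per2* and *Ciart*, both of the circadian clock, were at 4.87 ± 1.33 and 7.68 ± 1.78 CPM in WT and 1.91 ± 0.845 and 2.96 ± 2.21 CPM in KO cells (SD, n = 4 each). *Asns*, which makes asparagine, and *Eif4ebp1*, which restrains translation, were at 7.48 ± 2.07 and 9.77 ± 3.21 CPM in WT and 2.82 ± 1.49 and 2.34 ± 1.04 CPM in KO cells. Receptors of hormones and neurotransmitters included *Vipr1*, a receptor of vasoactive intestinal peptide, at 6.81 ± 2.28 and 1.90 ± 1.22 CPM, and *Adrb1*, a beta-adrenergic receptor, at 5.63 ± 0.957 and 1.87 ± 1.31 CPM. *Ret*, a receptor tyrosine kinase, was at 8.91 ± 4.07 and 3.41 ± 1.53 CPM, with S4 highest. The nucleotide receptors *P2rx7* and *P2ry6* were at 6.91 ± 3.65 and 5.71 ± 4.94 CPM in WT cells and under 1 CPM on average in KO cells, and both were highest in S3. *Ccnd1*, cyclin D1, was also highest in S3, at 25.8 CPM against 7.03 to 11.2 CPM in the other WT samples.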
